A study of Mus musculus with 8 samples.

Results

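The data concern 6 mature miRNAs of 3 hairpins, mmu-miR-126a-3p, mmu-miR-126a-5p, mmu-miR-221-3p, mmu-miR-221-5p, mmu-miR-222-3p and mmu-miR-222-5p, out of 1881 mouse miRNAs on the array. They were chosen by name as miRNAs linked to endothelium, not by a rule on their values. Earlier results of these data were known when they were chosen. The prefix mmu, for mouse, is left out from here on. Total RNA from whole kidney of 4 db/db males (strain label C57BLKS/J Iar -+Leprdb/+Leprdb) and 4 control males (C57BLKS/J Iar -m+/m+), all aged 28 weeks, was hybridised to single-colour Agilent miRNA arrays, 1 array per sample. db/db mice are homozygous for the db allele of the leptin receptor gene in every cell and become obese and diabetic, and the series compares their kidney miRNAs with those of age-matched controls. The titles call the controls dbm while the other labels call them m/m, so whether they carried a db allele is not settled. The labels do not state that each sample came from a separate animal, so a p-value here reflects only how far these samples spread, which may be technical. All 8 arrays lay on 1 slide, with the db/db samples in row 2 and the control samples in row 1, so genotype and the row of the slide cannot be told apart.

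A miRNA is cut from a hairpin precursor whose 5p and 3p arms can each be loaded into Argonaute, and pairs with mRNAs mainly through its seed, bases 2 to 8. miR-126 is encoded in an intron of Egfl7, which codes for a protein secreted by endothelial cells, and is among the most abundant miRNAs of endothelium. In mouse and zebrafish its 3p arm represses Spred1 and Pik3r2, inhibitors of VEGF signalling, and the 5p arm represses Dlk1 in mouse endothelium. miR-221 and miR-222 are made from neighbouring hairpins on the X chromosome. They repress Kit in human endothelial cells and the cell cycle inhibitor p27 (Cdkn1b) in several cell types, and are not restricted to endothelium. In kidney, the endothelium lines the glomerular and peritubular capillaries.

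The mature sequences in RefSeq (build GRCm38.p6) show which members can share targets, and the seed is in capitals.
miR-126a-3p: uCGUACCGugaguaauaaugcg
miR-221-3p: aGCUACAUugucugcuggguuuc
miR-222-3p: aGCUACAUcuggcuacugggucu
miR-221-5p: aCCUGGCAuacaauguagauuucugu
miR-221-3p and miR-222-3p begin with the same 8 bases and share the seed GCUACAU. After those bases only 3 of the remaining 15 positions are identical, so that 11 of 23 positions match in all. In the RefSeq table miR-1928 has the same seed and was detected on 0 of 8 arrays. The seed of miR-126a-3p, CGUACCG, occurred in no other mature mouse miRNA of that table.

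The hairpins show where the array reads each arm, with the bases complementary to the probes in capitals.
Mir126a: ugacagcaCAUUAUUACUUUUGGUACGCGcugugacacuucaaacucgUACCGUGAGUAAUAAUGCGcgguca
Mir221: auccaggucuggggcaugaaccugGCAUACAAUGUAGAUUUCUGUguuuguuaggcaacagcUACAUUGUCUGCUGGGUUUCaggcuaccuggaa
Mir222: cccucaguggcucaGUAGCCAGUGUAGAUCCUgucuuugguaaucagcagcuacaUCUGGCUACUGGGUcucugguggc
In GRCm38.p6, Mir126a lies on the plus strand at chr2:26591357-26591429, within the span of Egfl7 (chr2:26581083-26592682). Mir221 (chrX:19146294-19146388) and Mir222 (chrX:19146893-19146971) lie on the minus strand, 504 bases apart, and no other annotated gene spans either. The longer probe of miR-221-3p is complementary to bases 4 to 23 of the miRNA and that of miR-222-3p to bases 8 to 21, so the probes cover mainly the stretch in which these miRNAs differ. Each arm was read by 30 spots per array, from 2 probes, or 3 for miR-222-5p. Of the 240 spots of each arm on the 8 arrays, all were well above background for miR-126a-3p, miR-221-3p and miR-222-3p, and 231 were for miR-126a-5p. None was saturated.

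The arms miR-221-5p and miR-222-5p were detected on none of the 8 arrays. Only 1 of 240 spots of each was well above background. The scaled signal of miR-221-5p lay between -0.859 and 0.746 in db/db kidneys and between -1.01 and 1.93 in control kidneys. That of miR-222-5p lay between 0.375 and 1.97 in db/db kidneys and between -0.662 and 2.37 in control kidneys. All of these were below 2.80, the floor taken from the lowest signals of detected miRNAs, so these arms could not be compared. The miRNAs of the strand opposite Mir126a, miR-126b-3p and miR-126b-5p, were also detected on no array. The other 4 members were detected on all 8 arrays and passed the filter that at least 1 group has the miRNA on all of its arrays, as did 316 miRNAs.

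Signals were scaled so that each array had the same 75th percentile over the 269 miRNAs detected on all arrays. Before scaling that percentile was 425, 380, 406 and 398 on the db/db arrays and 338, 364, 367 and 406 on the control arrays. The factors applied were therefore 0.908 to 1.01 in db/db and 0.950 to 1.14 in control. The number of miRNAs detected was 289 to 358 per db/db array and 305 to 352 per control array. Kidney tubule miRNAs were abundant in all samples, with miR-192-5p at 12.18 ± 0.04 in db/db and 12.10 ± 0.07 in control on the log2 scale (SD, n = 4 each), as fits the tissue label. Of the 316 tested miRNAs 132 passed an adjusted p of 0.05, 77 higher and 55 lower in db/db, so that 58.3% of the calls were higher. That share was 78.1% with no scaling, 79.2% with scaling to the control probe dmr_285, 67.6% with the percentile taken over all miRNAs and 46.6% with quantile normalization. These shares are of 128, 159, 34 and 146 calls.

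Both arms of miR-126a were slightly lower in db/db than in control kidneys and did not pass the test, and miR-221-3p and miR-222-3p were slightly higher and did not pass either. None of the 4 tested members was called, against 41.8% of all tested miRNAs (limma with Benjamini-Hochberg adjustment over 316 miRNAs). At an unadjusted p under 0.05 the count was 2 of 4, both miR-126a arms, against 51.3% of all tested miRNAs. With trend and robust fitting in limma those 2 arms passed, 2 of 4 members, against 47.2% of all tested miRNAs in that fit. The sizes of the 4 changes lay between 0.04 and 0.15 on the log2 scale, where the median size over all tested miRNAs was 0.17. In these whole-kidney samples, fewer cells of a type and less RNA per cell cannot be told apart.

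miR-126a-3p had scaled signals of 3689, 3624, 3561 and 3713 in db/db kidneys, against 3807, 3961, 3867 and 4087 in control kidneys. Every db/db array lay below every control array. Such separation was found for 1 of the 4 tested members and for 41.5% of all tested miRNAs. On the log2 scale the means were 11.83 ± 0.03 in db/db and 11.94 ± 0.04 in control (SD, n = 4 each). The difference of -0.11 ± 0.04 (SE) corresponds to 0.928 times the control level, with a 95% interval of 0.872 to 0.988, and its adjusted p was 0.0566 (limma with Benjamini-Hochberg adjustment).

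The separation of miR-126a-3p depended on the scaling. Before scaling its mean signals were 4061, 3572, 3752 and 3835 in db/db and 3338, 3744, 3681 and 4303 in control, and the groups overlapped fully. The difference was then 0.019, and 0.016 with scaling to dmr_285, while with quantile normalization it was 0. In the authors' deposited table it was -0.15, the lowest of the 28 alternative settings, and not called (adjusted p = 0.0509, limma with Benjamini-Hochberg adjustment). The result of scaling to a control probe rests on the probe chosen. Of the 3 other probes of the dmr series that were well above background on every array, added after the data had been seen, scaling to dmr_6 gave 0.015, to dmr_3 0.055 and to dmr_31a 0.14, none of them called. The median change of all tested miRNAs was -0.02 with the main scaling, 0.10 with none, 0.10 with dmr_285 and with dmr_6, 0.14 with dmr_3 and 0.22 with dmr_31a. Relative to that median the difference of miR-126a-3p was -0.08 in each of these settings. They differ only by a factor per array, which shifts every miRNA and the median alike. This value could therefore not differ among them. Where it could differ, it was -0.02 with normexp background correction and -0.07 in the authors' deposited table. Relative to the median under quantile normalization, -0.06, it was 0.06. That method gives each signal a value set by its rank on the array, so its differences reflect ranks only.

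The probes of miR-126a-3p gave similar values. The sequence of the 18-base probe lies wholly within that of the 19-base probe, so the 2 are not independent readings. The 18-base probe differed by -0.12 ± 0.03 and the 19-base probe by -0.10 ± 0.03 (SE) on the log2 scale. In a fit across the 696 probes of tested miRNAs, of which 39.8% were called, both passed, with adjusted p of 0.0156 and 0.0496 (limma with Benjamini-Hochberg adjustment). This fit was added after the data had been seen.

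miR-126a-5p, the other arm of the hairpin, had scaled signals of 109, 104, 95.03 and 103 in db/db kidneys and of 116, 115, 107 and 117 in control kidneys. The lowest control array, replicate 3, lay below the highest db/db array, replicate 1, and the other values were apart. The log2 means were 6.68 ± 0.08 in db/db and 6.83 ± 0.06 in control (SD, n = 4 each). The difference of -0.15 ± 0.05 (SE) is 0.902 times the control level, with a 95% interval of 0.827 to 0.984 and an adjusted p of 0.0567 (limma with Benjamini-Hochberg adjustment). In the authors' deposited table the same fit gave -0.20 with an adjusted p of 0.0104, and with no scaling the difference was -0.02. The unscaled signals, 120, 102, 100.1 and 106 in db/db and 102, 109, 102 and 123 in control, overlapped. The call was thus made or lost with the setting. The difference was below 0 in 26 of 28 alternative settings, several of which leave the estimate of the main setting unchanged. It was 0.013 with scaling to dmr_3 and 0.095 with scaling to dmr_31a, neither called. Of its probes, the 21-base one differed by -0.14 ± 0.04 and passed across all probes, with an adjusted p of 0.0488. The 20-base one differed by -0.22 ± 0.08 (SE) and did not, with an adjusted p of 0.0755 (limma with Benjamini-Hochberg adjustment for both). This 20-base probe was dim, at 27.8 to 36.4 before scaling. Of its 15 spots per array, 9 were well above background on db/db replicate 2 and 13 on db/db replicate 3. On control replicate 3 it was 14, and on every other array all 15.

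**Figure D1:**
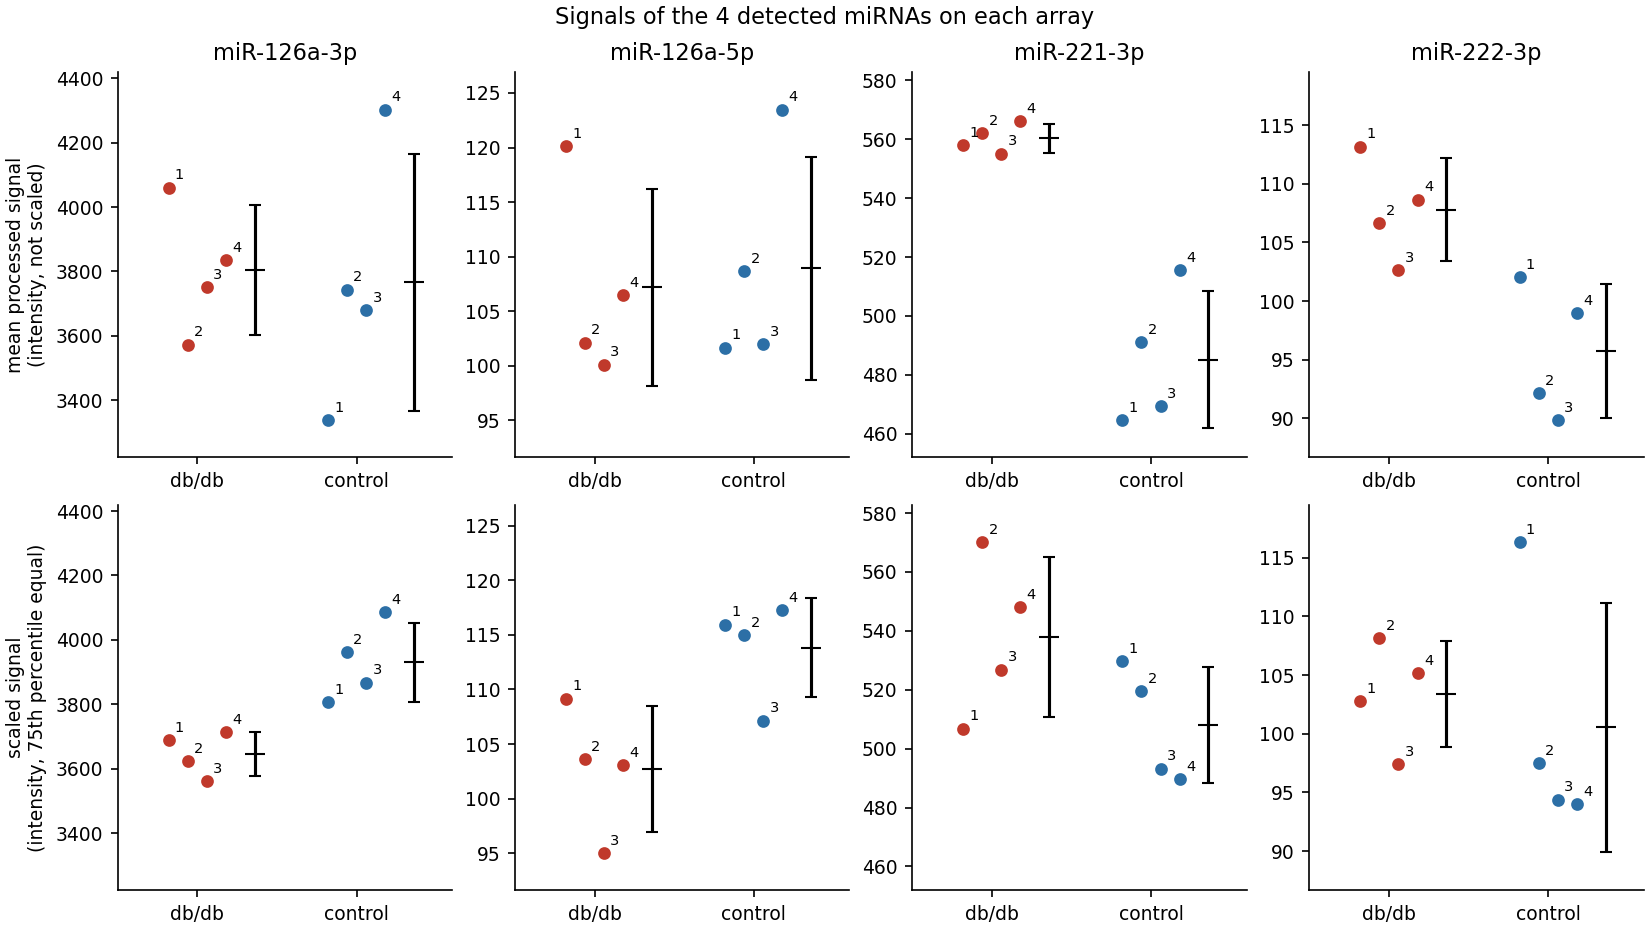
Signals of the 4 detected miRNAs on each array, before scaling in the upper row and after it in the lower row (intensity; the axes do not start at 0). Points are arrays numbered by replicate, and bars show the mean and SD of 4 arrays. After scaling, miR-126a-3p lay between 3561 and 3713 in db/db and between 3807 and 4087 in control, and before scaling miR-221-3p lay between 555 and 566 in db/db and between 465 and 516 in control.

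miR-221-3p had scaled signals of 507, 570, 527 and 548 in db/db kidneys and of 530, 520, 493 and 490 in control kidneys, and the groups overlapped. The log2 means were 9.07 ± 0.07 in db/db and 8.99 ± 0.06 in control (SD, n = 4 each). The difference of 0.08 ± 0.05 (SE) is 1.06 times the control level, with a 95% interval of 0.975 to 1.15, with an adjusted p of 0.228, so it was not called (limma with Benjamini-Hochberg adjustment).

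Before scaling, the signals of miR-221-3p were 558, 562, 555 and 566 in db/db, a spread of 4.85 (SD, n = 4), and 465, 491, 469 and 516 in control, and did not overlap. The difference was then 0.21 and passed, with an adjusted p of 0.0223. It also passed with scaling to dmr_285 at 0.21, adjusted p = 0.0101, to dmr_31a at 0.33, adjusted p = 0.00938, to dmr_3 at 0.24 and to dmr_6 at 0.20, and with quantile normalization at 0.18, adjusted p = 0.00548 (limma with Benjamini-Hochberg adjustment in each). Of all tested miRNAs, 40.5% were called with no scaling and 46.2% with quantile normalization. With dmr_285, dmr_31a, dmr_3 and dmr_6 the shares were 50.3%, 54.1%, 40.5% and 36.4%. The median change of all tested miRNAs was 0.10 with no scaling. How many of them separated before scaling was not counted. After subtraction of the median change over the 316 miRNAs, the difference was 0.11 with the main scaling, with none and with each of the 4 control probes. These settings differ only by a factor per array, so that value could not differ among them. Where it could differ, it was 0.14 with normexp background correction, 0.12 in the authors' deposited table and 0.24 with quantile normalization. The difference without this subtraction was above 0 in all 28 alternative settings, several of which leave the estimate of the main setting unchanged. It was lowest in the authors' deposited table, at 0.036, and not called there (adjusted p = 0.651, limma with Benjamini-Hochberg adjustment). The probes of miR-221-3p differed by 0.07 ± 0.05 and 0.09 ± 0.05 (SE).

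miR-222-3p had scaled signals of 103, 108, 97.4 and 105 in db/db kidneys and of 116, 97.5, 94.4 and 94.0 in control kidneys. Control replicate 1 was the highest of all 8 arrays, and the other 3 control arrays, at 94.0 to 97.5, lay at the level of the lowest db/db array or below it. Before scaling its signals were 113, 107, 103 and 109 in db/db and 102, 92.2, 89.8 and 99.0 in control, and did not overlap. The median change of all tested miRNAs with no scaling was 0.10, and how many of them separated then was not counted. Control replicate 1 had the highest scaling factor of the 8 arrays, 1.14. The log2 means were 6.69 ± 0.06 in db/db and 6.65 ± 0.15 in control (SD, n = 4 each). The difference of 0.04 ± 0.08 (SE) is 1.03 times the control level, with a 95% interval of 0.913 to 1.17, with an adjusted p of 0.651, above the threshold (limma with Benjamini-Hochberg adjustment). Without control replicate 1 it was 0.12 and still did not pass (adjusted p = 0.0919, limma with Benjamini-Hochberg adjustment). It passed in 2 of 28 alternative settings, scaling to dmr_285 at 0.17 with an adjusted p of 0.0441 and to dmr_31a at 0.29 with an adjusted p of 0.00709, and turned to -0.0054 under normexp background correction and to -0.0019 in the authors' deposited table (limma with Benjamini-Hochberg adjustment). Of all tested miRNAs, 50.3% were called with dmr_285 and 54.1% with dmr_31a. Relative to the median change of all tested miRNAs, miR-222-3p was at 0.07 with the main scaling and with both control probes. That value could not differ among them. Where it could, it was 0.06 with normexp, 0.08 in the authors' deposited table and 0.18 with quantile normalization.

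**Figure D2:**
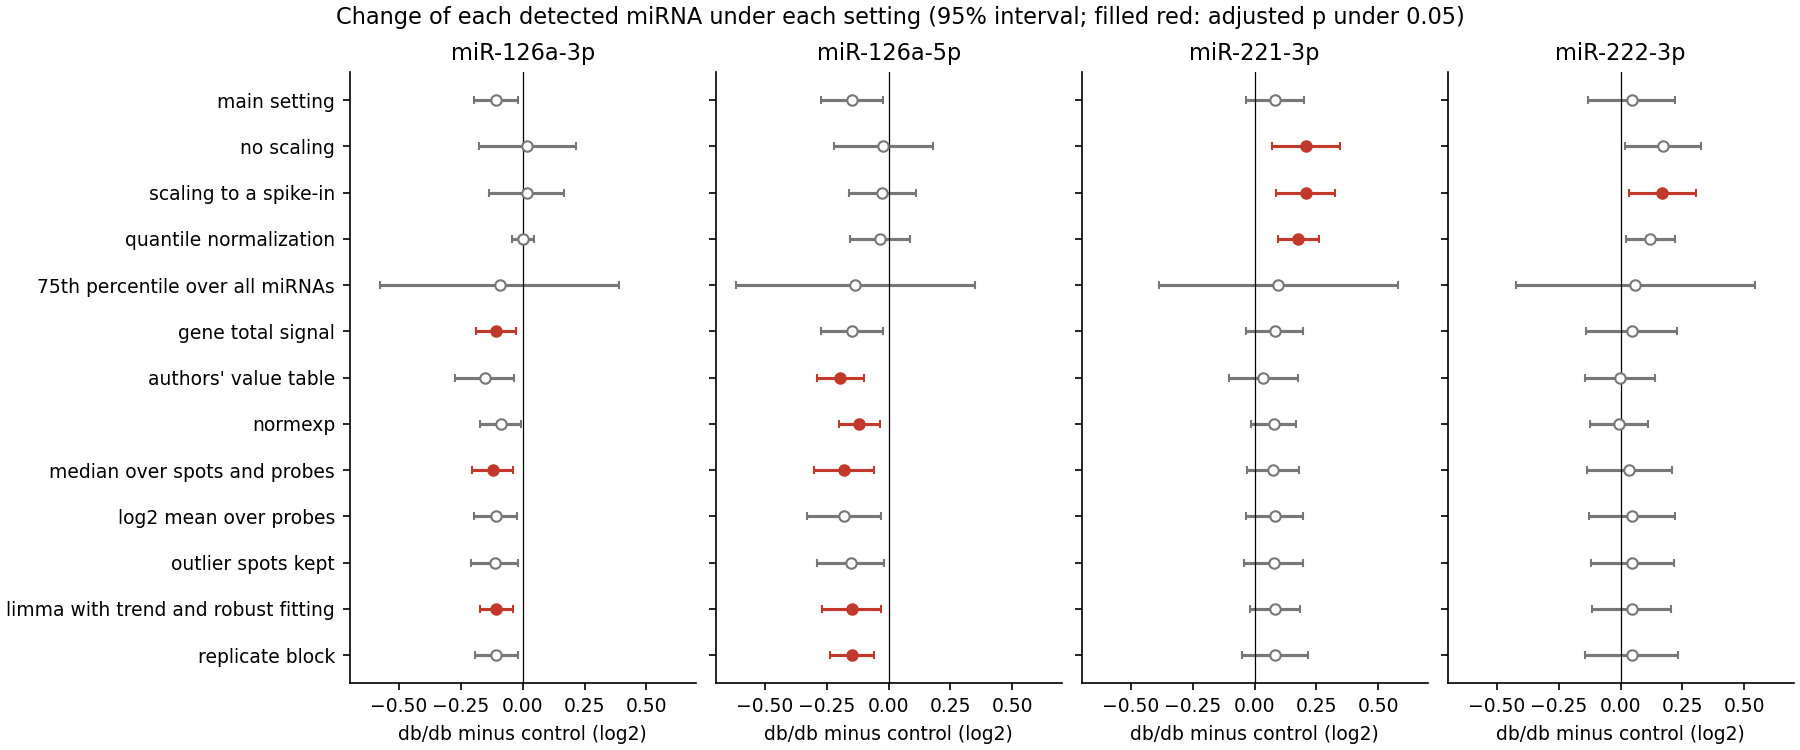
Change of each detected member (db/db minus control, log2 scaled signal, horizontal axis) under 13 settings, with 95% intervals. Filled red points passed an adjusted p of 0.05, and the spike-in is dmr_285. miR-126a-3p moved to 0.019 with no scaling and to 0 with quantile normalization, where miR-221-3p was at 0.21 and 0.18.

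A difference of log2 signals on the same array does not depend on a scaling by 1 factor per array, so it was used to ask whether partners changed unequally. For the arms of miR-126a, the 5p signal minus the 3p signal was -5.08, -5.13, -5.23 and -5.17 in db/db and -5.04, -5.11, -5.17 and -5.12 in control, and the groups overlapped. The means differed by -0.04, which was within the spread between arrays (exact permutation test over 70 assignments, 2-sided, p = 0.371; adjusted over the 2 pairs tested, 0.600). For the X-linked pair, miR-222-3p minus miR-221-3p was -2.30, -2.40, -2.44 and -2.38 in db/db and -2.19, -2.41, -2.39 and -2.38 in control. The means differed by -0.04 (exact permutation test, 2-sided, p = 0.600, adjusted over both pairs 0.600), without control replicate 1 by 0.014, and with normexp by -0.08 (exact p = 0.0857). For the miR-126a arms the log2 mean over probes gave -0.07 (exact p = 0.286). The smallest p this design allows is 0.0286. These values are of different probes, so only their difference between the groups is comparable.

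**Figure D3:**
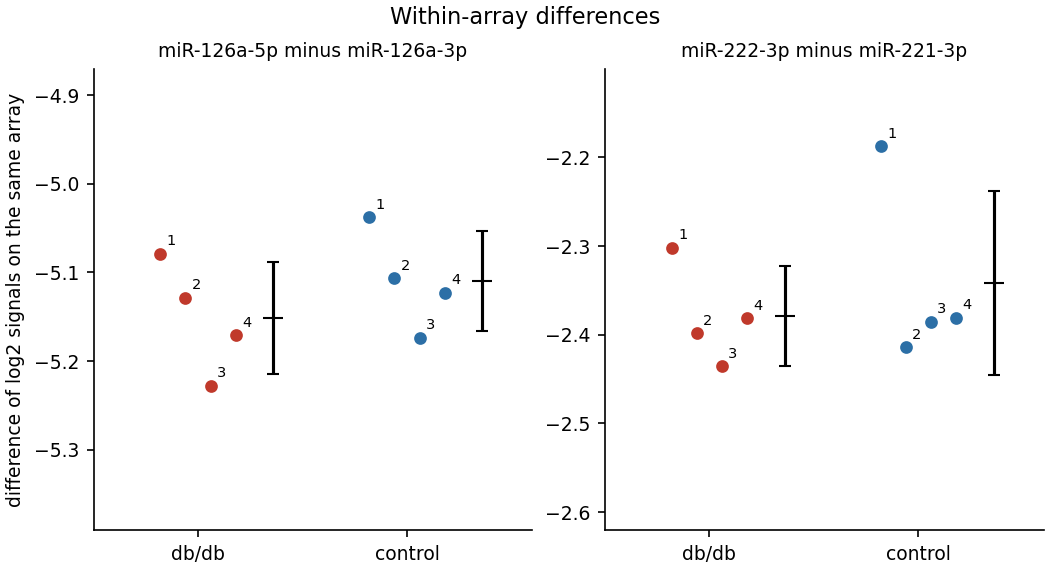
Difference of log2 signals on the same array for the arms of miR-126a (left) and for miR-222-3p and miR-221-3p (right). Points are arrays numbered by replicate, and bars show the mean and SD of 4 arrays. The groups overlapped in both panels, and control replicate 1 stood apart in the right one, at -2.19.

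For each tested member, the 3 miRNAs most like it were taken by Pearson's r of the deviations from the group means over the 8 arrays, among 268 miRNAs detected on all arrays. All points share the arrays and their scaling, so the values describe these arrays only. The 3 highest of 268 are also high through being picked, and no reference for that was computed. Between the arms of miR-126a r was 0.549, and between miR-221-3p and miR-222-3p it was 0.676. miR-126a-3p was closest to miR-10b-5p (r = 0.962), miR-10a-5p (r = 0.944) and miR-30e-3p (r = 0.919). These 3 rose in db/db, by 0.27, 0.21 and 0.30, whereas miR-126a-3p was at -0.11. miR-126a-5p was closest to miR-27a-3p (r = 0.978), miR-24-3p (r = 0.951) and miR-27b-3p (r = 0.941). miR-221-3p was closest to let-7a-1-3p (r = 0.867), miR-7241-5p (r = 0.860) and miR-7022-3p (r = 0.855), of which none passed. miR-222-3p was closest to miR-455-5p (r = 0.980), which rose by 0.44, and to miR-6368 (r = 0.973) and miR-5100 (r = 0.948), which did not pass.

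Other miRNAs linked to endothelium or angiogenesis moved both ways. Of 28 in the list, all on the array, 25 were tested, and 8 rose and 7 fell, or 32.0% and 28.0%. Over all tested miRNAs the shares were 24.4% higher and 17.4% lower. The 25 tested had a median change of 0.03, against -0.02 over all tested miRNAs. The summed level of the list on the log2 scale was 14.14 to 14.23 in db/db and 14.02 to 14.10 in control. Scaled signals were summed before taking log2, so the brightest members weigh most. In db/db the log2 mean was 11.58 for miR-23b-3p and 5.69 for miR-146a-5p. miR-23b-3p and miR-27b-3p, from 1 cluster, rose by 0.32 ± 0.03 and 0.23 ± 0.04 (SE). miR-10b-5p of the HoxD cluster rose by 0.27 ± 0.05, and miR-34a-5p, whose gene p53 activates, rose by 0.64 ± 0.09 (SE). miR-146a-5p, a feedback inhibitor of NF-kB signalling, fell by 1.49 ± 0.13 (SE). miR-132-3p, induced by CREB, fell by 0.75 ± 0.13 (SE). In limma with Benjamini-Hochberg adjustment the adjusted p of these 6 lay between 0.000137 and 0.00516. miR-10b-5p is also on the list of kidney tubule miRNAs, and the list was drawn up with results of these data known.

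**Figure D4:**
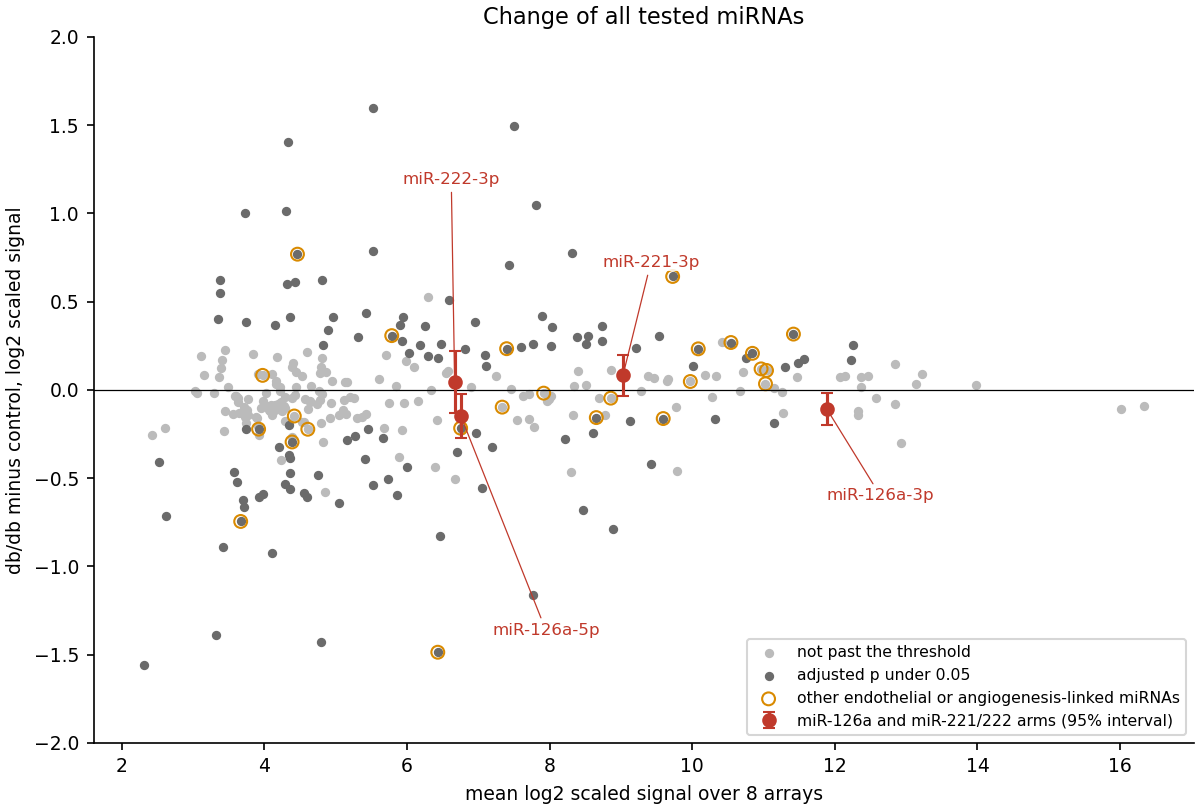
Change of the 316 tested miRNAs (db/db minus control, log2 scaled signal, vertical axis) against their mean log2 signal (horizontal axis). Dark points passed an adjusted p of 0.05, and rings mark other miRNAs of the endothelial list. The axis ends at 2 and -2, and 13 miRNAs lie outside it. The 4 tested members, in red with 95% intervals, lie between -0.15 and 0.08, near the middle of the cloud.

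Markers of other cells moved with genotype in part. The 4 leukocyte miRNAs on the list, miR-142a-3p, miR-142a-5p, miR-150-5p and miR-223-3p, all fell, against 17.4% of all tested miRNAs. miR-150-5p was detected on only 1 of 4 db/db arrays. The summed level of the 4 on the log2 scale was 7.58 to 8.15 in db/db and 8.80 to 9.23 in control. Of 5 kidney tubule miRNAs 3 rose, against 24.4% of all tested miRNAs. The summed level of the 5 was 13.67 to 13.72 in db/db and 13.51 to 13.58 in control. The summed level of the smooth muscle and pericyte miRNAs overlapped, at 8.84 to 9.01 in db/db and 8.84 to 9.04 in control. Neither of the 2 tested there, miR-143-3p and miR-145a-5p, passed, and the 2 others were detected on no array. The erythroid miRNAs spread over 9.35 to 11.82 in db/db and 9.47 to 11.60 in control, and neither of the 2 tested passed. The hepatocyte miRNA miR-122-5p had log2 levels of 5.65 to 7.06 in db/db kidneys and was undetected in every control kidney. The part of these shifts in the values of miR-126a, miR-221 and miR-222 was not tested.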

How the data were processed

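Per the file headers, the authors read spot intensity values from the scans in Feature Extraction (Agilent, 12.0.3.1), with spatial detrending on, background correction off and 0 dye normalization probes. The authors also deposited linear ratio values per miRNA. How these were scaled and centred is unknown. Its log2 changes had a correlation of 1 with those of the unscaled gene total signal across miRNAs, and lay 0.17 below them, so a higher value means more signal. Its column medians were 0.857, 1.01, 0.994 and 0.947 for db/db and 1.11, 1.10, 1.10 and 0.980 for control replicates 1 to 4. The deposited flags of 0 or 1 mark detection and outlier spots.

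Processed signals were averaged over spots that were not outliers, then over probes. Each array was scaled to an equal 75th percentile, floored at 2.80 (1.49 on the log2 scale) and taken to log2. The miRNAs detected on all 4 arrays of a group were tested with limma 3.58.1 in R 4.3.3, 2-sided, with Benjamini-Hochberg adjustment and a threshold of 0.05. Files were handled with the packages data.table (1.17.8) and jsonlite (2.0.0). The number of arrays limits the precision. The steps were tested on simulated data. The text names all members, the 3 miRNAs most like each tested one, and up to 6 called miRNAs of the endothelial list by adjusted p. Members and lists were chosen with earlier results of these data known. Alternatives covered scaling, signal, averaging, floor, filter, test, replicate block, single probes and left-out arrays. Single probes and control probes other than dmr_285 were added after the data had been seen. RefSeq sequences (GRCm38.p6) matched 4 of the 6 members by name. miR-126a-5p and miR-222-5p were shown through their hairpins.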

Additional observations from a re-analysis of the deposited data

Results flagged for a closer look

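The difference miR-222-3p minus miR-221-3p on control replicate 1 was -2.19, while the other 3 control arrays lay between -2.41 and -2.38. Its gap to the nearest array was 0.855 of the range of the group. This is above the 95% limit of Dixon's test for 4 samples. Chance passes this limit in about 1 group in 20, and 12 groups of values were examined. The signal of miR-222-3p on that array was 116, against 94.0 to 97.5 on the other control arrays.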

How the results depend on the processing

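With the 75th percentile over all miRNAs the number of called miRNAs was 34 of 316, and in the other 25 alternatives it was within 1.5 times 132. miR-126a-3p turned to 0.019 when unscaled 0.016 with dmr_285, 0.055 with dmr_3, 0.14 with dmr_31a and 0.015 with dmr_6, and passed at -0.11 with the gene total signal, with no floor and with trend and robust fitting, at -0.12 with medians, and with each probe alone at -0.12 and -0.10. miR-126a-5p passed at -0.12 with normexp, -0.20 in the authors' deposited table, -0.18 with medians, -0.15 with trend and robust fitting and -0.14 with its 21-base probe, and turned to 0.013 with dmr_3 and 0.095 with dmr_31a. miR-221-3p passed at 0.21 unscaled, 0.21 with dmr_285, 0.24 with dmr_3, 0.33 with dmr_31a, 0.20 with dmr_6 and 0.18 with quantile normalization. miR-222-3p passed at 0.17 with dmr_285 and 0.29 with dmr_31a, and turned to -0.0054 with normexp and -0.0019 in that table. The cause was not tested. In each setting where a member passed, between 35.1% and 54.1% of all tested miRNAs or probes were called.

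With an array left out, the number called was 113 to 139. The changes ranged from -0.12 to -0.089 for miR-126a-3p, -0.18 to -0.11 for miR-126a-5p, 0.05 to 0.11 for miR-221-3p and 0.014 to 0.12 for miR-222-3p. The 5p minus 3p difference of miR-126a changed by -0.07 to -0.016, and miR-222-3p minus miR-221-3p by -0.063 to 0.014 (above 0 without control replicate 1). Under quantile normalization these differences were -0.03 and -0.06, and they were largest in size at -0.07 with the log2 mean over probes and -0.08 with normexp, neither past the threshold. miR-126a-3p passed without control replicate 1 (adjusted p = 0.0396), and miR-126a-5p without control replicate 3 (0.0445) or db/db replicate 1 (0.0416), in limma with Benjamini-Hochberg adjustment.

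The replicate numbers were used as a block in 1 alternative. The main setting had no block because the labels do not say that the numbers pair samples. Same-numbered arrays share a slide column, and had correlations of deviations of -0.43, 0.41, -0.05 and -0.07 for numbers 1 to 4. These 4 values are too few to decide whether the arrays are paired. With the replicate block 144 miRNAs were called and miR-126a-5p passed at -0.15 (limma with Benjamini-Hochberg adjustment, adjusted p = 0.0253). The block changed no other call among the members.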

Other observations

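The replicate number equals the column of the slide in both groups. The 5p minus 3p difference of miR-126a was lower on the db/db array than on the control array of the same column in 4 of 4 columns, by -0.04, -0.02, -0.05 and -0.05 on the log2 scale. For miR-222-3p minus miR-221-3p the differences by column were -0.11, 0.016, -0.05 and -0.00076. The pairing was not part of the design, and with 4 columns an exact sign-flip test cannot go below 0.125.

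A pair chosen after the values were seen is given as a description with no test. miR-221-3p minus miR-126a-3p, which does not depend on a scaling by 1 factor per array, was -2.86, -2.67, -2.76 and -2.76 in db/db and -2.85, -2.93, -2.97 and -3.06 in control. The means were -2.76 ± 0.08 in db/db and -2.95 ± 0.09 in control (SD, n = 4 each), a difference of 0.19. db/db replicate 1 lay below control replicate 1, and the other values were apart.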
